A study of Mus musculus with 2 samples.

Results

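The promoter contacts of 7 core pluripotency genes, Pou5f1, Sox2, Nanog, Dppa3, Sall4, Lin28a and Utf1, were described on the 129 and Cas alleles of F121-6, a hybrid line of mouse embryonic stem (ES) cells, together with the chromatin up to 500 kb on either side of each gene. The genes were taken by their RefSeq spans on GRCm38, and the members are the windows of 50 kb that overlap a span. They are 9 of the 43941 windows in the table, and the surrounding windows add a further 111. The label holds for the genes, which are all textbook factors of the pluripotent state. Contact counts are not expression, so the identity of the cells could not be checked against marker genes here.

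F121-6 is a single female line from a cross of 129 with Cas, and both samples, replicates 1 and 2, were grown with LIF on mouse embryonic fibroblasts that had been inactivated with mitomycin C. Promoter Capture Hi-C joins pieces of chromatin that lie near each other in the nucleus and then pulls out the joined pieces that hold a promoter. The table holds, per allele and window, an interaction count and an interaction distance that pool both samples, so no spread between replicates can be given and every interval below covers counting error only. No treatment or second cell type enters the comparison, which is that of 129 with Cas within these cells. The sources used here do not say whether the samples were separate cultures.

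In ES cells the transcription factors encoded by Pou5f1 (OCT4), Sox2 and Nanog bind together at enhancers, many of them far from the promoters they act on, and keep each other and a wide set of genes active. OCT4 and SOX2 often bind side by side, at an octamer-like sequence next to a SOX sequence. Sox2 is known for a strong distal enhancer, the Sox2 control region, in the gene-poor stretch downstream of it, while Nanog and Dppa3 share a cluster of ES cell genes and enhancers. Contact maps of promoters are used to see such pairs. The values here are totals per window without the other end of an interaction, so such pairs cannot be seen in them.

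Promoters are shown for the 3 genes on which the account of windows turns, as the 250 bases before the start of transcription from RefSeq (GRCm38.p6), written 5′ to 3′ with matches to the searched motifs in capitals. The promoter of Sox2 (chr3:34649745-34649994, plus strand) lies at the very end of a window, that of Nanog (chr6:122707239-122707488, plus strand) holds a cutting site of HindIII, the enzyme of the assay, and that of Lin28a (chr4:134018817-134019066, minus strand) belongs to the locus with the lowest share of 129. Of the 7 genes, 5 matched the promoter table, and Dppa3 and Sall4 did not. The start used for Lin28a, 134018816, lies inside its RefSeq span, which ends at 134019196, and so do its printed bases.
Sox2: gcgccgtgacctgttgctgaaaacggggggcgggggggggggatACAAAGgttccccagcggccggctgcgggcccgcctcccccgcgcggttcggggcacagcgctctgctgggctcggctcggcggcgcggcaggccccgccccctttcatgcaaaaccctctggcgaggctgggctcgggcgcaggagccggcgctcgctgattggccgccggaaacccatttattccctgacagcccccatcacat
Nanog: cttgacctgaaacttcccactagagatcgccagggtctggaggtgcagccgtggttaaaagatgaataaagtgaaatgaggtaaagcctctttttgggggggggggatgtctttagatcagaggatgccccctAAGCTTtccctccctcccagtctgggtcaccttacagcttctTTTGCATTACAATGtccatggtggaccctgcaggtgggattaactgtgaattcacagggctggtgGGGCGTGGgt
Lin28a: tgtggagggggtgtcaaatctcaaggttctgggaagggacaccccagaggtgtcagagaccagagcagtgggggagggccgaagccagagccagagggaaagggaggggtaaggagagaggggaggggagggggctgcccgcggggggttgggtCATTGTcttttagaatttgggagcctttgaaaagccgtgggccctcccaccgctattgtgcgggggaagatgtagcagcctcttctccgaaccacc

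The motifs searched, on both strands, were the octamer ATGCAAAT, the SOX sequences ACAAAG and ACAATG, the KLF-like GGGTGTGG and GGGCGTGG, the E-box CACGTG and the HindIII site AAGCTT. In Nanog, the site AAGCTT began 117 bases before the start, and 6.22% of 32851 promoters in the table held this motif. An ACAATG stood 67 bases and a GGGCGTGG 10 bases before the start of Nanog, motifs held by 10.7% and 4.79% of promoters. The OCT-SOX composite motif, which overlaps that ACAATG and reads TTTGCATTACAATG here, began 75 bases before the start. This motif was added after the sequences were seen, and the form searched was the Nanog sequence with any base at its middle position. It occurred in 2 promoters of the table, both of them of Nanog. Since the form was read off this promoter, its rarity carries no information. Sox2 held an ACAAAG 206 bases before its start, a motif of 16.5% of promoters, and Lin28a held ACAATG on the opposite strand, from 96 bases before its start. No motif of the set was matched in the promoters of Pou5f1 and Utf1. CpG dinucleotides numbered 27 in Sox2, 14 in Utf1, 8 in Pou5f1, 7 in Lin28a and 3 in Nanog, against a median of 6 over the table.

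Over the whole table, 50842396 interactions lay on 129 and 37470557 on Cas, so the autosomal 129 share was 57.6%. The log2 ratio of 129 to Cas counts was therefore centred on the median window, and a centred ratio of 0 means the usual excess of 129. Windows were tested with a beta-binomial test, which allows the 129 share to vary between windows with an SD of 6.69 percentage points. The null was the autosomal share, and p-values were adjusted by Benjamini-Hochberg over 43762 windows. The exact binomial test, which allows for counting error alone, was run beside it.

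Pou5f1, Sox2, Nanog and Sall4 had the usual division between the alleles, in that the counting intervals of their 129 shares included the autosomal share. The Dppa3 window lay slightly towards 129, and those of Utf1 and Lin28a towards Cas. None of the 9 windows was called by the beta-binomial test, where 0.795% of all windows were called, 0.617% towards 129 and 0.178% towards Cas. None had an unadjusted p under 0.05, against 4.82% of all windows, 3.38% towards 129 and 1.44% towards Cas. No centred ratio reached 2-fold, as 3.32% of all windows did. The binomial test called 3 of the 9, Dppa3 towards 129 and Lin28a and Utf1 towards Cas, where it called 51.4% of all windows, 27.1% towards 129 and 24.3% towards Cas. All centred ratios lay between -0.28 and 0.14, with a median of -0.01 against 0.00 over all windows tested.

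Pou5f1, the gene of OCT4, starts at 35506032 on chromosome 17, and its window (chr17:35500001-35550000) had 3534 interactions on 129 and 2512 on Cas. The share on 129 was 58.5% (exact 95% interval 57.2 to 59.7%), which includes the autosomal value. The window is shared with Tcf19, Cchcr1, Psors1c2 and Cdsn, so its contacts are not those of Pou5f1 alone.

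Sox2, which encodes the HMG-box partner of OCT4, spans 34649995 to 34652461 on chromosome 3 and is cut by a window edge. The first 6 bases of the gene, with the promoter printed above, lie in the window chr3:34600001-34650000, and the other 2461 bases lie in the next. The first window had 2261 interactions on 129 and 1639 on Cas, which gave 129 a share of 58.0% (56.4 to 59.5%). The second had 305 and 211, a share of 59.1% (54.7 to 63.4%). The promoter side thus held 7.41 times as many interactions on 129 and 7.77 times as many on Cas as the window with the body of the gene.

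Nanog, a homeobox gene, had 1414 interactions on 129 and 1039 on Cas in its window (chr6:122700001-122750000), for a 129 share of 57.6% (55.7 to 59.6%). The window also holds part of Slc2a3, a glucose transporter gene. Dppa3 (Stella), known for protecting DNA methylation in the early embryo, lies 77.2 kb before Nanog in a window (chr6:122600001-122650000) with Gdf3, a TGF-beta family ligand, and Apobec1. That window had 1165 and 771 interactions and a share of 60.2% (58.0 to 62.4%), the highest of the 7 genes. Its adjusted p was 1 by the beta-binomial test and 0.0426 by the exact binomial test.

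Sall4, a zinc finger factor gene, lies across 2 windows on chromosome 2. The first (168700001 to 168750000), shared with Atp9a, had 973 and 719 interactions, and the second (168750001 to 168800000) had 465 and 362. Their 129 shares of 57.5% (55.1 to 59.9%) and 56.2% (52.8 to 59.6%) both included the autosomal share.

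Lin28a, whose RNA-binding product blocks maturation of let-7 microRNAs, had 2456 interactions on 129 and 2172 on Cas (chr4:134000001-134050000). Its share of 53.1% (51.6 to 54.5%) was the lowest of the 7 genes, with a centred ratio of -0.28. The adjusted p was 6.25e-09 by the exact binomial test and 1 by the beta-binomial test, and 38.7% of all windows lay as far from 0 or farther. Utf1, which encodes a chromatin-bound coactivator of ES cells, had 2756 and 2272 in its window (chr7:139900001-139950000), a share of 54.8% (53.4 to 56.2%) and a centred ratio of -0.17. The exact binomial adjusted p for Utf1 was 0.000309.

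Ordered by the 129 share over all windows of a gene, Dppa3 came first, followed by Pou5f1, Sox2 (58.1%), Nanog, Sall4 (57.1%), Utf1 and Lin28a. Neighbours in this order had overlapping intervals. Of the 21 pairs of genes, 8 had intervals that did not overlap, and each of these included Lin28a or Utf1. Lin28a was apart from the 5 genes other than Utf1, and Utf1 was apart from Pou5f1, Sox2 and Dppa3. These intervals leave out the spread between windows. The exact binomial test, which also leaves it out, called 51.4% of all windows. Of all windows, 38.7% lay as far from 0 as that of Lin28a or farther, and 56.4% as far as that of Utf1. How often other pairs of genes lie apart in this way was not computed.

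**Figure D1:**
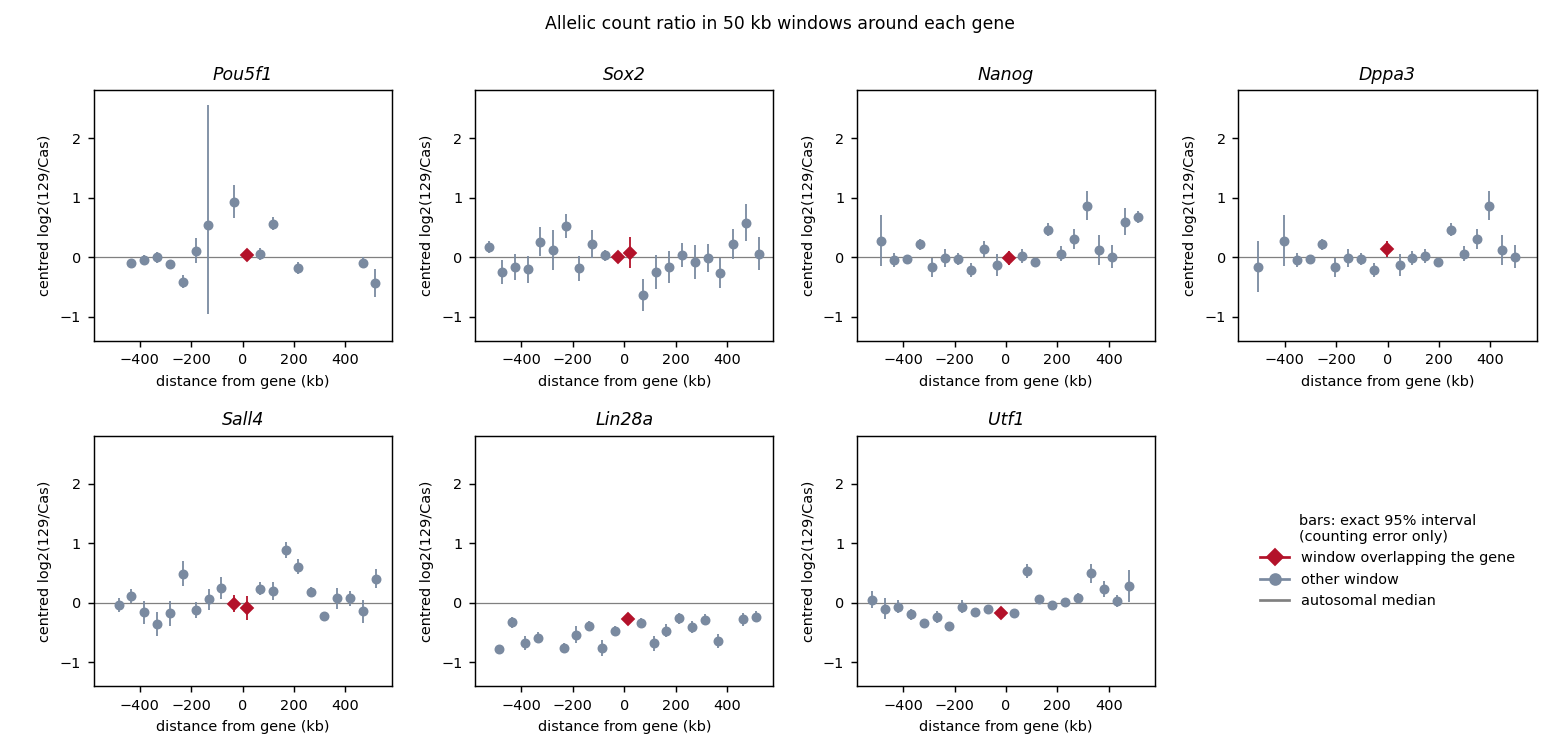
Centred log2 ratio of 129 to Cas counts (vertical axis) in windows of 50 kb by distance in kb from the middle of each gene, one panel a gene, for windows with 10 or more interactions. Diamonds are windows that overlap the gene and bars are exact 95% intervals from counting error. All 19 points around Lin28a lie below 0, between -0.78 and -0.23, while the other loci have points on both sides.

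The fullest of the 9 windows was that of Pou5f1, above 92.4% of the table's windows or level with them, with 6046 interactions on both alleles together. Utf1 had 5028, Lin28a 4628 and the promoter window of Sox2 3900. Nanog had 2453, Dppa3 1936, and the windows of Sall4 had 1692 and 827. The Sox2 body window was the emptiest at 516. The assay baits promoters, and the number of coding genes in these windows ran from 1 for Sox2 to 5 for Pou5f1. Windows with a coding gene had a median summed count of 1795 over the table and those without 553, but full windows without one occurred, such as the fullest of the Sall4 locus (169050001 to 169100000) with 6176. The part of baits in the counts was not tested. Within its own 1 Mb locus the Sox2 promoter window had rank 1 of 22, that of Pou5f1 rank 3 of 15 and that of Lin28a rank 5 of 19. The Nanog window had rank 7 of 21 and the Utf1 window rank 9 of 21. Dppa3 had rank 11 of 20, and the fuller window of Sall4 rank 10 of 21.

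Both alleles had nearly the same profile of counts along each locus. Across the windows of a locus, Pearson r between log10 counts of 129 and Cas ran from 0.941 at Sall4 (21 windows) to 0.990 at Pou5f1 (14 windows), and Spearman rho from 0.873 at Sox2 to 0.986 at Utf1. The alleles share library, baits and neighbouring windows, so these values are a description. The Sox2 windows took 20.1% of all interactions of the locus on 129 and 20.3% on Cas. For Pou5f1 the shares were 11.6% and 11.0%, and for the other genes they lay between 4.07% and 7.07%.

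**Figure D2:**
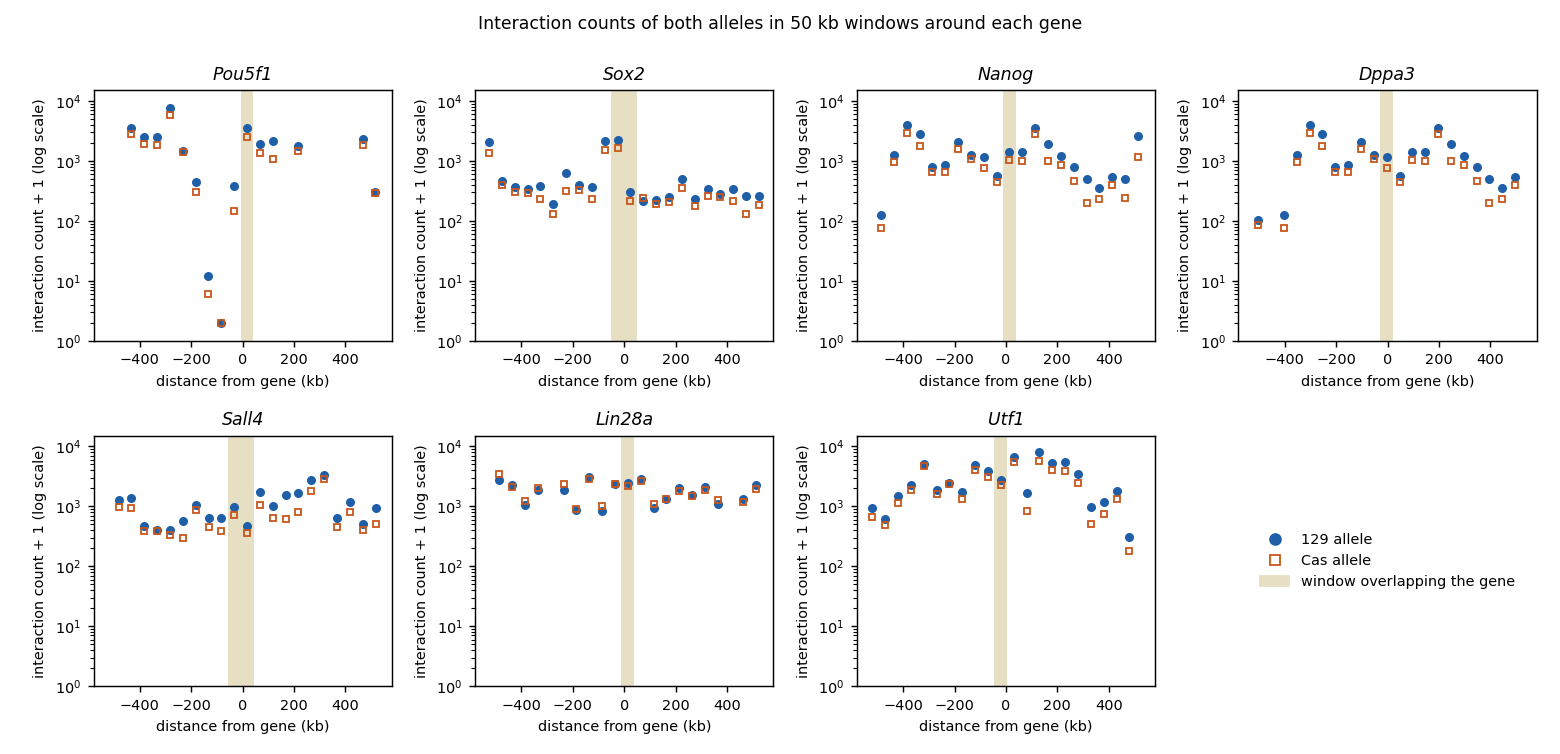
Interaction counts plus 1 (log axis) of 129 (filled circles) and Cas (open squares) in windows of 50 kb by distance in kb from each gene. Shaded windows overlap the gene. At Sox2 the counts fall from 2261 and 1639 in the promoter window to 305 and 211 in the next, and near Pou5f1 they reach 1 on each allele in the H2-Q windows.

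Sox2 stands nearly alone in its neighbourhood, since no other protein-coding gene overlapped its 22 windows. It lies inside the span of the long noncoding RNA gene Sox2ot (34560381 to 34677993), which covers 3 of them. Another full window (chr3:34550001-34600000) stood just before the promoter window, with 2130 interactions on 129 and 1519 on Cas and a distance of 39 kb on both alleles. The 10 windows before the gene had a median summed count of 702.5 and the 10 after it 453, against 553 over the 18534 windows of the table without a coding gene. After the gene, where the Sox2 control region lies, the counts were low and even, from 393 to 842 on both alleles together. They do not name the other end of an interaction, so contacts of Sox2 with this region cannot be read from them.

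Distances around Sox2 changed at the same edge as the counts. They were 60 kb on 129 and 73 kb on Cas in the promoter window, and 705 and 1168.5 kb in the window after it. In the 10 windows beyond, distances on 129 ran from 911 to 1869.5 kb with a median of 1236.25 kb, and on Cas from 955 to 2468 kb with a median of 1530 kb. The medians before the gene were 399.75 and 401.5 kb. Neighbouring windows there ran opposite ways, with 533 kb on 129 and 1344 kb on Cas from 34450001 and 1305 and 657 kb from 34500001. Windows without a coding gene had median distances of 906 and 898 kb over the table. Of the 10 windows after the gene, 7 had the longer distance on Cas. The first of them (chr3:34700001-34750000) also had the lowest count ratio of the locus, with 210 interactions on 129 and 238 on Cas, or 129 at 46.9% (42.2 to 51.6%) and a centred ratio of -0.63. The next window, from 34750001, had 221 and 192, with distances of 911 and 955 kb. The highest ratio, 0.58, was at 35100001 to 35150000, with 264 and 129 interactions.

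Around Nanog and Dppa3, which share 19 windows of their loci, the gene windows and the chromatin between them had centred ratios near 0. The window between the 2 genes (chr6:122650001-122700000) had 557 interactions on 129 and 444 on Cas, a centred ratio of -0.13, with distances of 152 and 162 kb. The window after Nanog, within Slc2a3 (122750001 to 122800000) had 1398 and 1005, and a further window with Slc2a3 and Foxj2 had 3569 and 2766. The fullest window of the locus (122300001 to 122350000) holds Phc1, a Polycomb gene, and M6pr, with 3944 and 2930.

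Ratios were higher on the far side of Nanog, where most windows lie over a family of C-type lectin genes. Near-identical copies in such a family can share reads, and the part of this in the ratios was not tested. The windows nearest Nanog on that side, from 122750001, 122800001 and 122850001, hold no lectin gene and had ratios of 0.02, -0.08 and 0.46. Of the 10 windows after Nanog, 9 lay above 0, with a median centred ratio of 0.21, while 3 of the 10 before it did, with a median of -0.03. The highest ratio was 0.87 in the window of Clec4a4 and Clec4b1 (chr6:123000001-123050000), with 499 interactions on 129 and 199 on Cas, or 129 at 71.5% (68.0 to 74.8%). Contacts there spanned 275 kb on 129 and 1123.5 kb on Cas, 4.09 times as long on Cas. A window of Clec4b2 and Clec4n had 2585 and 1183.

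Pou5f1 lies in the major histocompatibility complex, and the emptiest windows of all 7 loci lay before it. The window of H2-Q6 and H2-Q7 (chr17:35400001-35450000) had 1 interaction on each allele and that of H2-Q4 had 11 and 5. Such families of near-identical genes can lose or share reads in mapping, so values over the H2 genes are uncertain. Over H2-Q1 and H2-Q2 (35300001 to 35350000) contacts spanned 189.5 kb on 129 and 665 kb on Cas, 3.51 times as long on Cas. The window of H2-Q10 (35450001 to 35500000), just before that of Pou5f1, had 385 interactions on 129 and 147 on Cas, the highest ratio of the locus at 0.93. The lowest ratio among windows with 100 or more interactions was -0.43 over H2-T24, H2-T23 and H2-T22, with 301 and 296. Of the 21 windows possible within reach, 6 were not in the table used here, 5 of them after the gene, between 35650001 and 35950000. The other 6 loci lacked at most 2 windows each.

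After Pou5f1, the window of Cdsn (35550001 to 35600000) had 1907 and 1342 interactions with a ratio of 0.05, and the next one, with Mucl3 and Sfta2, had 2180 and 1076 with a ratio of 0.57. Contacts in that window spanned 32 kb on 129 and 89 kb on Cas. The window of Ddr1, a collagen receptor gene, had 1764 and 1460 and distances of 92 and 91 kb. The fullest window of the locus lay before the gene, over Tnf, Lta and Ddx39b (35200001 to 35250000). It had 7538 and 5927 with distances of 14 and 10 kb.

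Around Sall4 the largest differences lay over its neighbour Zfp64, a zinc finger gene. A Zfp64 window (chr2:168900001-168950000) had 1523 interactions on 129 and 603 on Cas, or 129 at 71.6% (69.7 to 73.5%) and a centred ratio of 0.88. The next (168950001 to 169000000) had 1698 and 815, and its contacts spanned 386 kb on 129 and 36 kb on Cas, 10.7 times as long on 129. Of the 21 windows, 16 had the longer distance on 129 and 4 on Cas, with a median log2 distance ratio of 0.29. Around 97.6% of 18306 protein-coding genes with 10 or more windows tested within reach, the corresponding median was lower. The Sall4 median depended on the reach, at 0.39 with 250 kb and 0.15 with 1 Mb, and was not ranked among genes there. The locus still held windows the other way, such as 168300001 to 168350000, without a coding gene, with 78 kb on 129 and 267 kb on Cas. The lowest count ratio, -0.35, was at 168400001 to 168450000, with 407 and 380 interactions.

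The 3 windows just named at H2-Q10, Clec4a4 and Zfp64 were those with an unadjusted beta-binomial p under 0.05 among the 110 surrounding windows tested, at 0.0305, 0.0403 and 0.0325. They are 2.73% of those windows, a lower share than the 4.82% of all windows. None of the 110 passed after adjustment over all windows, where the lowest adjusted p was 0.843, against a background of 0.795% called. The exact binomial test called 60 of the 110, 25 towards 129 and 35 towards Cas, against 51.4% of all windows. The locus of Lin28a alone had 19 such calls towards Cas, its gene window included.

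In the neighbourhood of Lin28a the alleles were nearly level in count. All 19 windows lay below 0, with centred ratios from -0.78 to -0.23 and a median of -0.47. Over them 129 had 34749 interactions and Cas 35047, a 129 share of 49.8% (49.4 to 50.2%), while the other 6 loci had shares between 56.5% at Utf1 and 59.6% at Sall4. The exact binomial test called all 19 towards Cas and the beta-binomial test called none, with no unadjusted p under 0.05. Each window alone thus fell short of the test, and no test of the locus as a whole was run. The Lin28a window was among the least shifted, with only 2 of the 19 closer to 0.

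In raw counts, Cas exceeded 129 in 10 of the 19 Lin28a windows. This was so in 8.00% of all windows tested and in 1 window of the other 6 loci together, the window after Sox2. The lowest ratio was in the window of Nudc and Kdf1 (chr4:133500001-133550000), with 2741 interactions on 129 and 3434 on Cas, or 129 at 44.4% (43.1 to 45.6%). A window of Arid1a, a gene of the BAF chromatin remodelling complex, had 1875 and 2326 (133750001 to 133800000). The window of Hmgn2 and Dhdds just before Lin28a had 2359 and 2397, and that of Crybg2 and Cd52 just after it 2828 and 2602. Of the 19 distances, 12 were longer on 129, 5 were longer on Cas and 2 did not differ. They were 55 kb on 129 and 43 kb on Cas in the Lin28a window, 27 kb on both alleles in the window of Hmgn2 and 28 kb on both in that of Cd52. The largest distance ratio was over Rps6ka1 (133800001 to 133850000), at 150 kb on 129 and 28 kb on Cas, and the next window, also over Rps6ka1, was the farthest the other way at 49 and 80 kb.

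The stretch of windows below 0 ran on past the 500 kb reach. Looked up after the values were seen, it held 34 windows in an unbroken row from 132900001 to 134850000, 1.95 Mb with 52 protein-coding genes, and 5 further windows of that span were not in the table. Its median centred ratio was -0.40 and its 129 share 51.0% (50.7 to 51.3%). Over the table, 15 of the 8654 stretches below 0 were as long or longer, this one included. The windows at its ends had ratios of 0.81 before it and 0.05 after it. By whole megabases, the 129 share was 56.5% from 132000001, 48.8% from 133000001, 53.7% from 134000001 and 55.6% from 135000001. Other megabases of chromosome 4 were also low, with 52.2% from 129000001, where all 19 windows lay below 0, and 52.5% from 141000001. Chromosome 4 as a whole had a share of 57.1%.

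**Figure D3:**
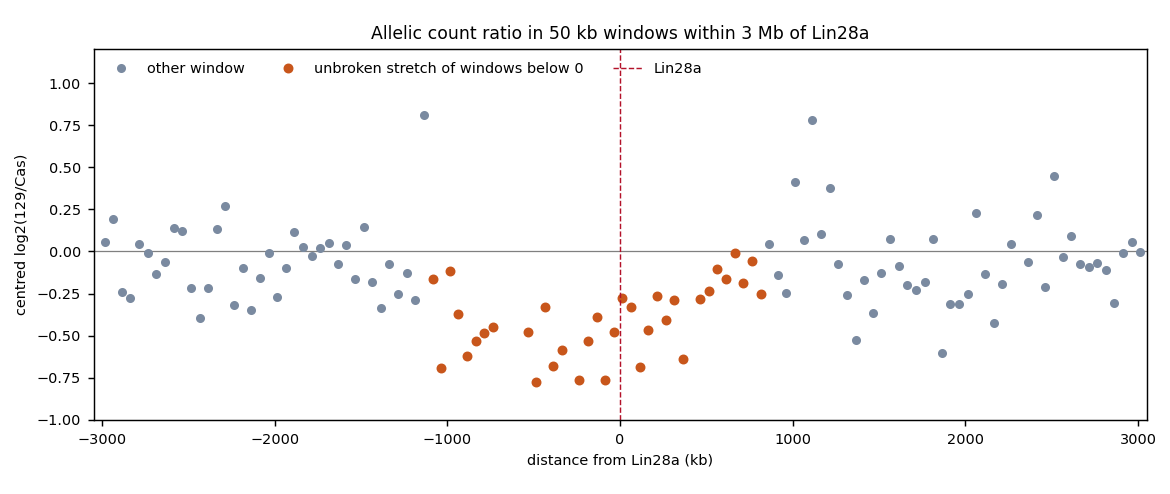
Centred log2 ratio of 129 to Cas counts in windows of 50 kb within 3 Mb of Lin28a, by distance in kb from the gene (dashed line). The 34 windows of the unbroken stretch below 0 are coloured and lie between -0.78 and -0.01, while windows outside it scatter on both sides of 0.

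Set beside the same median around every protein-coding gene, the Lin28a locus lay at the low edge. Of 18306 genes, 1.52% had a lower locus median, and the 279 genes at or below the value of Lin28a, itself among them, lay on 11 chromosomes, with 76 on chromosome 14, 49 on chromosome 8 and 39 on chromosome 4. Windows all below 0 were found around 2.55% of the genes. The other 6 loci were near the middle, with 38.8% of genes lower than Utf1 (-0.06), 51.5% lower than Pou5f1 (-0.03), 61.2% lower than Dppa3 (0.00), 67.1% lower than Sox2 and Nanog (0.02 each) and 79.5% lower than Sall4 (0.07). The medians of Pou5f1, Sox2, Nanog, Dppa3 and Sall4 changed sign with another reach or centring. Neighbouring genes share windows, so these percentiles describe the table and are no test.

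**Figure D4:**
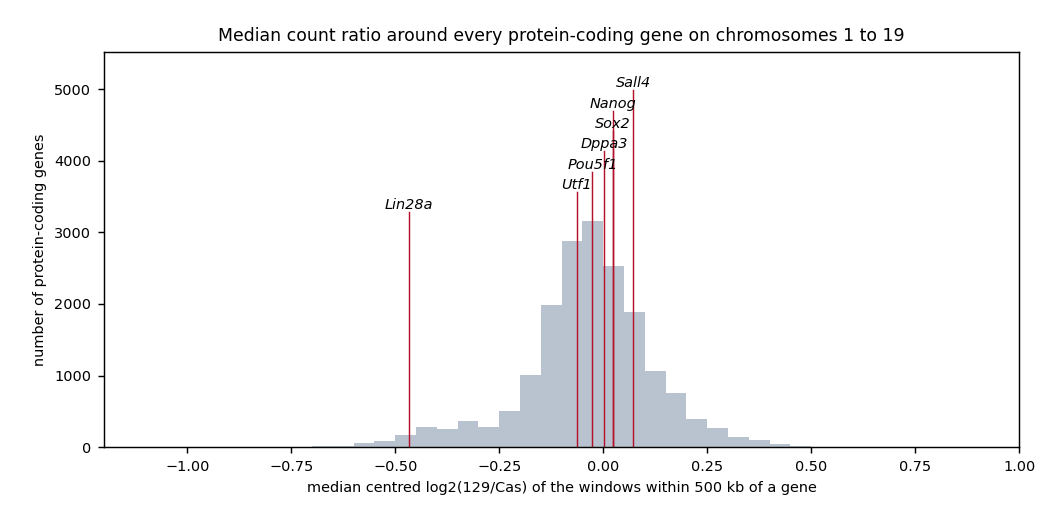
Histogram of the median centred log2 ratio of 129 to Cas counts over the windows within 500 kb of each of 18306 protein-coding genes (vertical axis, number of genes), with the 7 core genes marked by lines. Lin28a lies at -0.47, in the low tail, and the other 6 genes lie between -0.06 and 0.07.

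The Utf1 locus held the fullest window of the 7, with 8086 interactions on 129 and 5648 on Cas over Caly, Prap1 and Fuom (chr7:140050001-140100000). Its sides differed: 1 of the 10 windows before the gene and 8 of the 10 after it lay above 0, with medians of -0.13 and 0.07. The gene window lay in an unbroken stretch of 11 windows below 0, and 194 of 8654 such stretches were as long or longer. How often the sides of a locus differ like this, here or at Nanog, was not computed. The lowest ratio of the locus was -0.40 in a window without a coding gene (139700001 to 139750000) with 2421 and 2333. The highest was 0.53 over Tubgcp2, Zfp511 and Msx3 (140000001 to 140050000), with 1674 and 848, next to the window of Adam8, which had 6731 and 5524. Distances at this locus were close on both alleles, with 1 window of 21 differing by 2-fold or more, that of Nkx6-2 and Inpp5a at 159.5 kb on 129 and 79.5 kb on Cas. The farthest the other way was a window of Inpp5a (139450001 to 139500000) at 254.5 and 368.5 kb.

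In the gene windows themselves, distances were within 2-fold of each other on both alleles at every gene, where 17.1% of all windows differed by 2-fold or more, 8.37% with the longer distance on 129 and 8.73% on Cas. They were 31 kb on 129 and 36 kb on Cas at Pou5f1, 86.5 and 101 kb at Nanog, 232 and 179 kb at Dppa3, and 94 and 77 kb at Utf1. The Sall4 windows had 180 and 144 kb and then 198 and 161.5 kb. The distance was longer on Cas at Pou5f1, Sox2 and Nanog and longer on 129 at Dppa3, Sall4, Lin28a and Utf1. The largest log2 distance ratio was -0.73, in the body window of Sox2, and 25.2% of all windows lay as far from 0. In the surrounding windows, 20 of 109 differed by 2-fold or more, 10 in each direction. A distance, whether a mean or a median being unknown, has no error in this table, so no test was made.

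**Figure D5:**
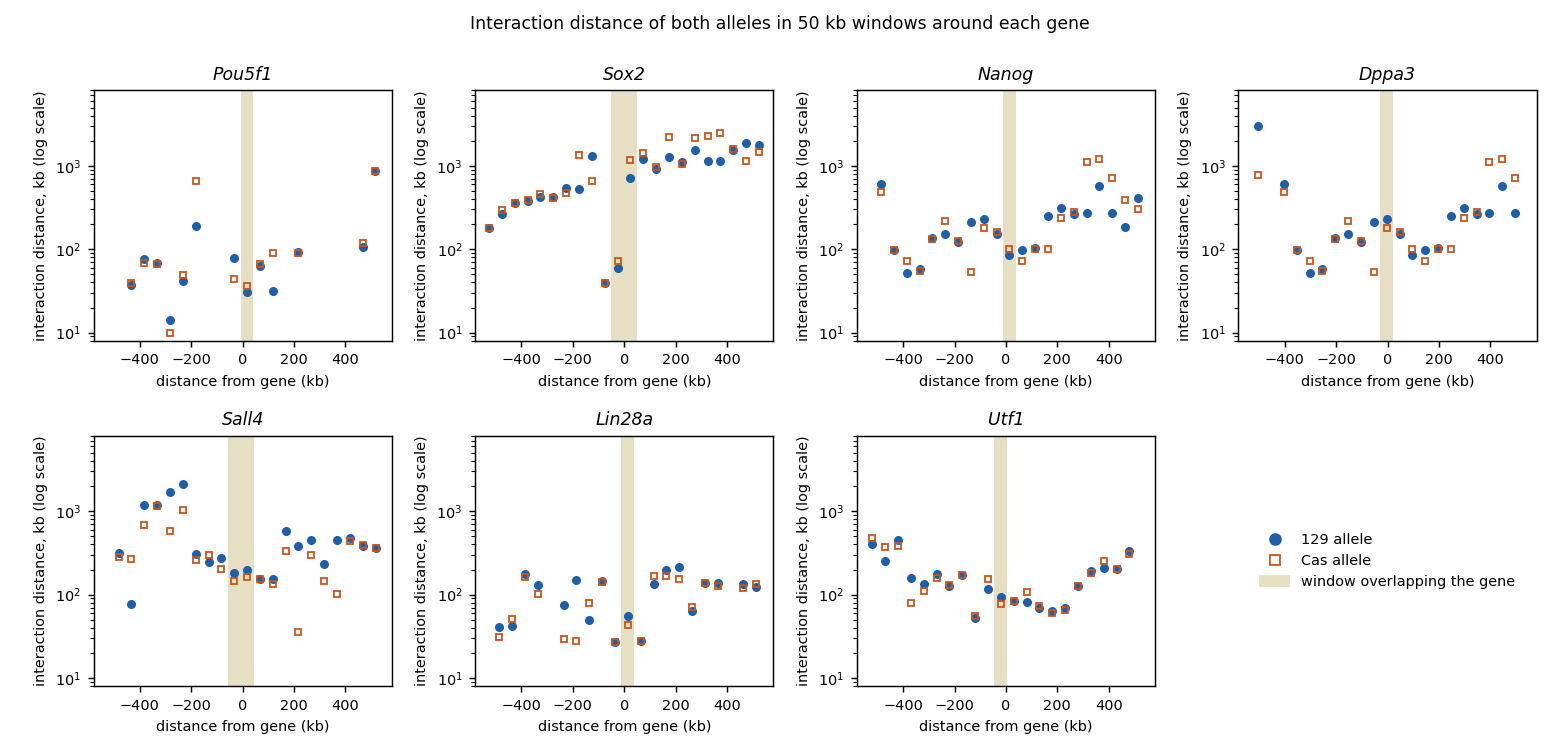
Interaction distance in kb (log axis) on 129 (filled circles) and Cas (open squares) in windows of 50 kb by distance in kb from each gene, for windows that hold at least 10 interactions per allele. At Sox2 the distance steps from 60 and 73 kb in the promoter window to 705 and 1168.5 kb in the next, and at Sall4 most circles lie above the squares.

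Other genes of the pluripotency network were set beside the core genes. The lists here and below were drawn up by textbook function, with earlier results of these data known. Of 19 windows of the naive factors (9 of 10 genes in the table), the beta-binomial test called none, the exact binomial test called 6 towards 129 and 7 towards Cas, and the median ratio was -0.02. Over all windows the binomial test called 27.1% towards 129 and 24.3% towards Cas, against which the calls of each list are to be read. Prdm14 (596 and 246 interactions) and Klf5 had the highest ratios at 0.82 and 0.19, and Zfp42 (2071 and 2012) and Klf4 (2751 and 2590) the lowest at -0.41 and -0.37. In the wider ES network (19 of 20 genes), 0 of 25 windows were called by the beta-binomial test, 11 towards 129 and 5 towards Cas by the binomial test, with a median of 0.06. Dppa2 and Dppa5a were highest at 0.47 and 0.38, and Sall1, a paralog of Sall4, and Tdgf1 lowest at -0.60 and -0.29. Gdf3 of this list shares the window of Dppa3.

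Neural factor genes, which ES cells keep silent, were also looked up. Of their 10 windows the beta-binomial test called none and the binomial test called 2 towards 129 and 5 towards Cas, with a median of -0.08. Nkx2-2 had a ratio of 0.20, and Pax3 (-0.56) and Sox1 (-0.35) had the lowest. Fibroblast genes were included because feeder cells were present. Of their 13 windows, 2 were called towards 129 by the beta-binomial test, both of Fn1, the fibronectin gene, whose 3 windows together had 3337 interactions on 129 and 667 on Cas, against 0.617% of all windows called towards 129. The exact binomial test called 3 of the 13 towards 129 and 7 towards Cas, and the median ratio was -0.11. Vim was next highest at 0.01, and Twist1 (-0.20) and S100a4 (-0.18) were lowest. The share of contacts that came from feeder cells was not tested. Median summed counts were 2307 per window in the naive factors, 3319 in the wider network, 2844.5 in the neural factors and 4812 in the fibroblast genes, against 2453 in the core genes. No test of a difference between lists was made.

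For each core gene, the protein-coding locus over 1 Mb away with the most similar values was looked up, using 4 values from these pooled libraries: the summed count per window, the count ratio, the distance and the distance ratio. Each was put in units of its standard deviation over the loci, and likeness was the Euclidean distance. The closest locus was Ide for Nanog, at 0.0651, with 2796 interactions on 129 and 2042 on Cas over 2 windows. It was Nipa1 for Lin28a (0.135), Usp46 for Utf1 (0.148), Elf2 for Pou5f1 (0.156), Serpinb1c for Sall4 (0.166) and Gpatch2 for Dppa3 (0.193). Sox2 had the most distant closest match, Lypd6 at 0.258.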

How the data were processed

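The members and the gene lists were chosen with earlier results of these data known. Fixation was with 2% formaldehyde and digestion with HindIII, per the labels' protocols. RNA baits covered 22225 promoters and paired reads of 100 bp were sequenced. The submitters' processing notes name Bowtie2 and mm10. Assignment of reads to alleles, filters, removal of duplicates and the merging of both samples are not given in the sources used here. Mapping to a single reference can favour the allele closer to it, and its part in the 129 excess was not tested.

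The deposited count columns hold whole-number interaction counts per allele in windows of 50 kb, not normalised. The other deposited values, the distances, are multiples of 500, taken to be bp, and the labels do not say if a mean or a median was taken. Both samples name the same columns, so each column was used as a pooled value of the group.

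Ratios were log2((129 + 1)/(Cas + 1)) minus the median. The beta-binomial test was two-sided, was run where both alleles together had 10 or more interactions, and took a single overdispersion of 0.0183, estimated by moments, with a threshold of 0.05 after Benjamini-Hochberg adjustment. Distance ratios needed 10 interactions on each allele. Shares have exact Clopper-Pearson 95% intervals. Named beside the genes were the windows of extreme count ratio (summed count of 100 or more) and distance ratio (20 or more per allele) in each locus, coding genes in gene windows, up to 2 list genes per direction (20 or more) and the closest locus, genes known by model numbers left out. Further windows next to the genes, the fullest windows and the stretch around Lin28a were chosen after their values were seen. Some items that this rule gives are not reported here.

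On simulated data with 43762 windows and an overdispersion of 0.02, 58% of 4-fold changes, 6% of 2-fold changes and 0% of 1.5-fold changes were recovered by the beta-binomial test. The binomial test called 62.3% of unchanged windows there. Tests used scipy 1.17.1 under Python 3.11.15, with numpy 2.4.6 and pandas 2.3.3 for tables and matplotlib 3.10.9 for plots.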

Additional observations from a re-analysis of the deposited data

How the results depend on the processing

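Under the beta-binomial test the count of called windows stayed at 0 for the gene windows and for the surrounding windows with the null share of the chromosome or of equal alleles, an overdispersion per decile of count or weighted by count (the latter added after the data were seen), a count minimum of 100, a threshold of 0.1 and a reach of 1 Mb. A threshold of 0.01, the start window alone and a reach of 250 kb could only give 0. They are stricter or take a part of windows that had no call. Over all windows the calls numbered 348 in the main setting, 713 with the weighted overdispersion and 107 with a null of equal alleles. The exact binomial test called 3 gene windows, 60 surrounding windows and 46 windows of the 4 lists. The lists had 2 calls in the main setting and 1 with the null of equal alleles. Centring on each chromosome moved the median ratio of the surrounding windows from -0.048 to -0.067. Locus medians at another reach were added after the data were seen, and some of those near 0 changed sign. At 1 Mb the median was -0.35 for Lin28a, -0.02 for Sall4, -0.02 for Sox2 and 0.02 for Pou5f1, and at 250 kb it was 0.18 for Sall4, 0.08 for Pou5f1, -0.01 for Nanog, -0.02 for Dppa3 and -0.10 for Utf1. Centring on the chromosome gave -0.09 for Pou5f1, 0.04 for Sall4 and -0.02 for Dppa3. The cause was not tested. No paired analysis was possible because the columns pool both replicates, and for the same reason no replicate was left out. Sall4 and Dppa3 kept all their windows where the start window alone was used, since no start was in the promoter table. Depth limits the Pou5f1 locus, where 2 windows had fewer than 100 interactions.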
